A study of Danio rerio with 8 samples.

Results

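The genes described here encode receptors for GABA, glycine and glutamate. They were taken as every row of the count table whose gene symbol begins with gabr, gabbr, glra, glrb, gria1 to gria4, grin1 to grin3, grik1 to grik5, or grm and a digit up to 8. The pattern uses names alone and found 68 of 36351 rows, made up of 22 GABA-A receptor genes, 3 GABA-B receptor genes, 7 glycine receptor genes, 8 AMPA receptor genes, 12 NMDA receptor genes, 4 kainate receptor genes and 12 metabotropic glutamate receptor genes. Total RNA was taken from small pools of intact zebrafish embryos at 26 hours post fertilisation (hpf). The wild-type group has 4 pools, and the group called mutant below has 4 pools of the genotype MZ osgep G177A/G177A. MZ means maternal-zygotic, so that neither the mother nor her embryo had a wild-type copy of osgep. This gene encodes the enzyme of KEOPS, a complex that modifies tRNAs. The crosses were both single and group crosses, and the labels give neither the number of embryos in a pool nor its parents. Replicates are therefore pools, and p-values measure the spread between them.

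GABA-A and glycine receptors are ring-shaped chloride channels built from 5 subunits of related families. In the mature nervous system they carry fast inhibition, while in young neurons, which hold more chloride, their opening can depolarise the cell. AMPA, kainate and NMDA receptors are cation channels that carry fast excitation by glutamate, and GABA-B and metabotropic glutamate receptors signal through G proteins. In the zebrafish embryo of this age the first spinal circuits are already active and the embryo coils and responds to touch, the latter through glutamate receptors.

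Expected counts per library ranged from 21290942 to 27675104, of which 3454 to 6247 fell on the 68 receptor genes. Levels are depth-scaled counts (CPM) after TMM scaling, as mean ± SD of 4 pools, and values for single pools are given in the order of replicates 1 to 4. They are not divided by gene length, so they compare pools and not genes. The transcript of osgep measured 16.1, 20.4, 17.2 and 23.2 CPM in the wild-type pools and 13.8, 8.38, 10.8 and 10.03 CPM in the mutant pools, without overlap. Within each genotype the pools also differed: ribosomal protein genes took 14.3% to 16.1% of the counts in wild-type pools 1 and 3 and mutant pool 1, and 7.88% to 11.5% in the other 5. Of the 24 listed markers of postmitotic neurons, all with counts, 17 fell and none rose (median log2 fold change −0.80). At the threshold used below, 16.3% of all tested genes fell and 15.8% rose. The summed level of the markers was 1126 to 1410 CPM in wild type and 793 to 924 CPM in the mutant. In whole embryos, fewer neurons and less RNA per neuron cannot be told apart.

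Of the receptor genes that changed, all but glrbb were lower in the mutant pools. Of the 68 genes 46 had enough counts to be tested, and 16 of these fell and 1 rose at an adjusted p under 0.05 (edgeR's quasi-likelihood test, Benjamini-Hochberg adjustment over all 22467 tested genes). Among all tested genes 16.3% fell and 15.8% rose, against 34.8% lower among the tested receptor genes. The median log2 fold change, mutant minus wild type, was −0.52 over the tested receptor genes and 0.0042 over all tested genes. Among the 46 tested receptor genes, genotypes did not overlap in 16 that were lower and 2 that were higher in the mutant, where 17.6% and 16% of all tested genes did so. The falls were spread over GABA-A (5 of 11 tested), glycine (2 of 5), AMPA (4 of 8), NMDA (4 of 7) and metabotropic glutamate receptors (1 of 8). None of the 3 GABA-B and 4 kainate receptor genes passed the test.

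**Figure D1:**
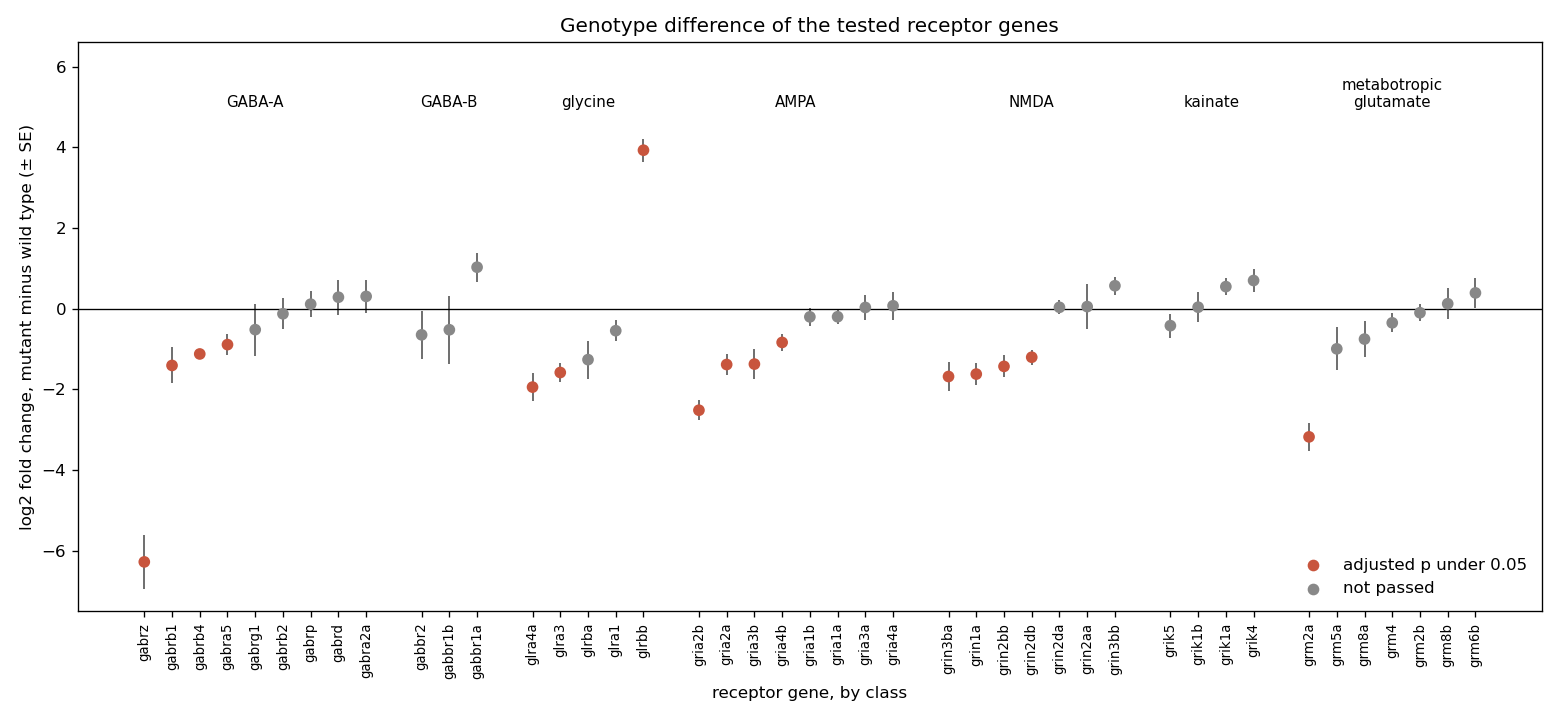
Log2 fold change (mutant minus wild type, ± SE) of 43 of the tested receptor genes, grouped by class, with genes at an adjusted p under 0.05 in red and the others in grey. glrbb stands at 3.93 and gabrz at −6.28, and 15 of the 16 red points lie below 0.

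The gene that rose was glrbb, which encodes a beta subunit of the glycine receptor. The beta subunit joins alpha subunits in the channel and binds gephyrin, the protein that anchors the receptor at synapses, and loss of glrbb causes the bandoneon motor defect in zebrafish. glrbb (ENSDARG00000052769) measured 6.12, 6.38, 6.24 and 5.56 CPM in the wild-type pools and 149, 60.3, 77.4 and 82.7 CPM in the mutant pools. The wild-type pools lay close together, and every mutant pool was far above them, with mutant pool 1 highest. The mean went from 6.08 ± 0.36 to 92.4 ± 39.1 CPM (log2 fold change 3.93, SE 0.28, adjusted p = 4.23e-05, edgeR's quasi-likelihood test), and the depth-scaled ratio of the summed counts, 9239 against 576, was 15.2. Its 95% interval of 13.96 to 16.5 covers counting error only. Of all changed genes, 137 had a larger log2 fold change. As a share of all receptor counts, glrbb went from 3.45% to 3.897% in the wild-type pools to 39.1% to 56.8% in the mutant pools.

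No other tested glycine receptor gene rose, and 2 genes for alpha subunits, which bind glycine, fell. glra3 measured 6.599, 7.40, 7.95 and 3.99 CPM in wild type and 2.27, 1.695, 2.30 and 2.36 CPM in the mutant, and glra4a measured 2.75, 3.33, 3.86 and 1.65 CPM against 1.01, 0.491, 0.804 and 0.678 CPM. Both fell without overlap, glra3 to 33.2% (log2 fold change −1.59, SE 0.25, adjusted p = 0.00169) and glra4a to 25.8% of the wild-type mean (−1.95, SE 0.34, adjusted p = 0.00302, edgeR for both). The second beta copy, glrba (ENSDARG00000052782), had few reads, with 58 counts over the wild-type and 26 over the mutant pools. Its levels were 0.830, 0.509, 0.714 and 0.431 CPM and 0.295, 0.0892, 0.192 and 0.428 CPM, which did not overlap but missed the threshold (log2 fold change −1.27, SE 0.47, adjusted p = 0.0725, edgeR). glra1, the alpha subunit gene mutated in human startle disease, averaged 1.72 ± 0.168 CPM in wild type against 1.17 ± 0.288 CPM in the mutant, short of the threshold (adjusted p = 0.134, edgeR). glra2 was below the count filter, with 16 wild-type and 60 mutant counts and a ratio of 3.55 (counting interval 2.02 to 6.602). Scaled for depth, it was higher in every mutant pool than in any wild-type pool, and glra4b, also below the filter, overlapped.

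The summed glycine receptor level depended on whether glrbb was counted. With glrbb it was 13.4 to 20.6 CPM in wild type and 63.9 to 155 CPM in the mutant, and without glrbb it was 7.87 to 14.4 CPM and 3.61 to 5.93 CPM. The share of glycine receptor counts that belonged to glrbb moved from 34.1% ± 5.01 to 94.3% ± 1.37.

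In RefSeq's gene order for the assembly GRCz12tu, glrbb and the AMPA receptor gene gria2b are adjacent, and so are their copies glrba and gria2a. The neighbours glrbb and gria2b moved in opposite directions, while gria2a fell beside glrba, which did not pass. Since the strand setting and annotation of the counting were not given in the sources used here, it was not tested whether reads from one of these neighbours were counted for the other. On the other side of glrbb, the growth factor gene pdgfc stood at 11.7 ± 0.958 and 10.5 ± 1.65 CPM and mrpl18 at 29.1 ± 4.05 and 30.1 ± 7.17 CPM, and neither passed. Of the next genes on that side, si:ch211-203d1.3 did not pass (adjusted p = 0.0536) and srpx2 rose from 7.22 ± 0.872 to 12.5 ± 1.14 CPM (adjusted p = 0.00286, edgeR for both). Of all receptor genes placed in that table, grm8a alone shares a chromosome with osgep, and it did not pass.

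**Figure D2:**
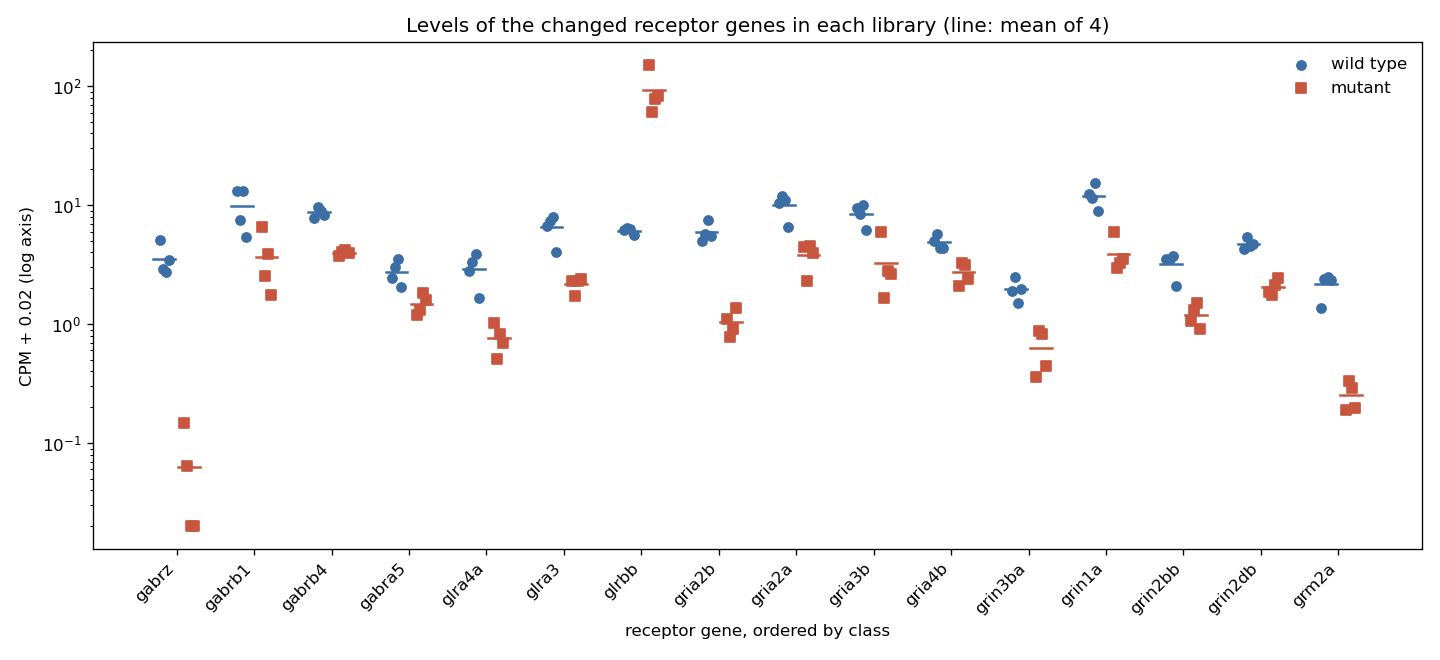
CPM of 16 changed receptor genes in each of the 8 libraries on a log axis, with 0.02 added so that the pools at 0 can be drawn. Blue circles are wild-type and red squares mutant pools, and each line is the mean of 4. gabrb1 is the gene whose genotypes overlap.

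GABA-A receptors are assembled from subunits of several families, and 5 of the 11 tested genes fell. The largest fall was that of gabrz, annotated as a zeta subunit gene (ENSDARG00000094512). Its counts were 116, 74, 57 and 88 in the wild-type pools and 3, 1, 0 and 0 in the mutant pools, or 5.07, 2.90, 2.71 and 3.45 CPM against 0.126, 0.0446, 0 and 0 CPM. Reads were thus close to absent from all 4 mutant pools, and the summed counts gave an 88.5-fold lower level with a counting interval from 34.2 to 327 (adjusted p = 3.18e-04, edgeR). Among changed genes 34 had a lower log2 fold change. In the RefSeq order adgra1a, which encodes an adhesion G protein-coupled receptor, lies next to gabrz, and it fell too, from 2.82 ± 1.17 to 0.503 ± 0.242 CPM (log2 fold change −2.46, SE 0.43, adjusted p = 0.00319, edgeR). valopb, the neighbour on the other side, averaged at most 0.17 CPM in either genotype and was not tested. As with glrbb and gria2b, it was not tested whether reads from gabrz or adgra1a were counted for the other.

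Among beta subunit genes, gabrb4 and gabrb1 fell. gabrb4 measured 7.78, 9.67, 8.86 and 8.30 CPM in wild type and 3.70, 4.01, 4.17 and 3.96 CPM in the mutant, a tight fall to 45.8% (log2 fold change −1.13, SE 0.13, adjusted p = 4.86e-04, edgeR). gabrb1 measured 13.1, 7.44, 13 and 5.37 CPM and 6.56, 2.50, 3.83 and 1.75 CPM. In this gene the genotypes overlapped, since mutant pool 1 lay above wild-type pool 4, and pools 1 and 3 of wild type were the high ones (log2 fold change −1.41, SE 0.45, adjusted p = 0.0409, edgeR). The gabrb1 call ended without wild-type pool 1, 2 or 3 (adjusted p = 0.101, 0.0603 and 0.105) and without mutant pool 2, 3 or 4 (0.0968, 0.0875 and 0.0909, edgeR). gabrb2 was at 0.391 ± 0.0859 and 0.355 ± 0.126 CPM and did not pass.

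gabra5, an alpha subunit gene, measured 2.40, 2.98, 3.48 and 2.04 CPM against 1.18, 1.29, 1.80 and 1.57 CPM, without overlap (log2 fold change −0.89, SE 0.25, adjusted p = 0.0255, edgeR). Its call ended without wild-type pool 2 or 3 (adjusted p = 0.0761 and 0.0788) and without mutant pool 2 or 4 (0.063 and 0.0566, edgeR). The tested members that did not pass also included gabrg1, gabra2a, gabrd and gabrp, with log2 fold changes from −0.52 to 0.30. gabrg1 varied widely within each genotype, with 0.830, 1.65, 0.953 and 1.84 CPM in wild type and 0.0842, 0.892, 1.65 and 1.03 CPM in the mutant. The 11 GABA-A genes below the filter included 5 of the alpha family and the 5 rho genes, known for their part in the retina, and none had more than 49 counts over the 4 pools of a genotype. Of these gabra6a (32 against 10 counts) and gabrr2a (26 against 9) were lower in every mutant pool, and gabrb2l had no count in any library. Summed over all its genes, the GABA-A level was 30.5 to 40.96 CPM in wild type and 16.4 to 20.8 CPM in the mutant.

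The GABA-B receptor is a dimer of a gabbr1 and a gabbr2 product. gabbr1a measured 0.918, 2.74, 1.52 and 2.86 CPM in wild type and 3.03, 4.33, 4.52 and 4.57 CPM in the mutant. Every mutant pool was above every wild-type pool, but the gene missed the threshold (log2 fold change 1.03, SE 0.36, adjusted p = 0.0564, edgeR). It passed in DESeq2 (adjusted p = 0.0191) and in limma-voom (adjusted p = 0.0363). Without wild-type pool 4 or without mutant pool 1 it passed as well (adjusted p = 0.0356 and 0.0400, edgeR). With any other pool left out gabbr1a did not pass (adjusted p = 0.058 to 0.140, edgeR). It also missed the threshold with total counts only (adjusted p = 0.087, edgeR). Its partner gabbr2 stood at 0.962, 2.43, 0.762 and 2.54 CPM against 0.210, 1.16, 1.61 and 1.28 CPM, and gabbr1b at 0.612, 1.68, 0.238 and 2.98 CPM against 0.0842, 1.70, 1.15 and 0.928 CPM. All 3 genes were lowest in wild-type pools 1 and 3 and in mutant pool 1, the pools with the highest ribosomal protein share. The part of that share in these values was not tested beyond a fit with the share as a covariate, in which gabbr1a was higher (log2 fold change 0.91, adjusted p = 0.00737) and gabbr2 lower (−1.08, adjusted p = 0.0234, edgeR). The pool order was not particular to this class, since grm4 was also lowest in those pools. That fit also called grik1a, grin3bb and grm6b higher (adjusted p = 0.0308, 0.0176 and 0.0185, edgeR). It called grm4 lower (log2 fold change −0.474, adjusted p = 0.0262, edgeR).

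AMPA receptors are tetramers of the products of gria1 to gria4, each kept in zebrafish as an a and a b copy. In mammals the GRIA2 subunit sets how much calcium the channel passes, and both fish copies of it fell. gria2b measured 4.98, 5.68, 7.53 and 5.44 CPM in wild type and 1.09, 0.758, 0.881 and 1.36 CPM in the mutant, a fall to 17.3% (log2 fold change −2.52, SE 0.25, adjusted p = 1.86e-04, edgeR). gria2a measured 10.3, 11.9, 11.1 and 6.54 CPM against 4.42, 2.27, 4.52 and 3.96 CPM, a fall to 38.2% (log2 fold change −1.39, SE 0.27, adjusted p = 0.00476, edgeR). In both copies the lowest wild-type pool was above the highest mutant pool.

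Of the other AMPA genes, gria3b and gria4b fell. gria3b measured 9.40, 8.38, 9.95 and 6.11 CPM in wild type and 5.97, 1.65, 2.79 and 2.61 CPM in the mutant, with mutant pool 1 just under wild-type pool 4 (log2 fold change −1.38, SE 0.37, adjusted p = 0.0215, edgeR). gria3a measured 13.7, 8.62, 13.5 and 6.50 CPM against 16.4, 8.88, 9.42 and 8.43 CPM and overlapped (log2 fold change 0.028, SE 0.30, adjusted p = 0.956, edgeR). gria4b fell from 4.98, 5.68, 4.33 and 4.35 CPM to 2.06, 3.26, 3.10 and 2.39 CPM (log2 fold change −0.84, SE 0.21, adjusted p = 0.0138, edgeR), while gria4a stood at 0.904 ± 0.334 and 0.947 ± 0.204 CPM. Neither gria1 copy passed: gria1a was at 6.70 ± 1.55 and 5.82 ± 0.446 CPM and gria1b at 4.35 ± 1.000 and 3.77 ± 0.685 CPM. The gria3b call ended without wild-type pool 1 or 3 (adjusted p = 0.052 and 0.0587) and without mutant pool 3 or 4 (0.0625 and 0.0651), and the gria4b call without wild-type pool 2 (0.0536, edgeR for all).

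NMDA receptors need the obligatory subunit encoded by grin1, which binds glycine or serine, together with grin2 subunits, which bind glutamate, or grin3 subunits. The copy grin1a measured 12.3, 11.4, 15.3 and 8.89 CPM in wild type and 5.89, 2.94, 3.22 and 3.50 CPM in the mutant. All mutant pools were lower, and the mean fell to 32.4% (log2 fold change −1.62, SE 0.26, adjusted p = 0.00214, edgeR). The other copy, grin1b, was below the filter with 12, 15, 22 and 8 counts against 2 in each mutant pool, 7.53-fold lower with a counting interval from 3.57 to 18.3.

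Among grin2 and grin3 genes, those that changed all fell. grin2db measured 4.28, 5.37, 4.48 and 4.66 CPM in wild type and 1.85, 1.74, 2.11 and 2.43 CPM in the mutant (log2 fold change −1.21, SE 0.18, adjusted p = 0.00151, edgeR). grin2bb measured 3.50, 3.52, 3.71 and 2.08 CPM against 1.05, 1.29, 1.49 and 0.893 CPM (log2 fold change −1.43, SE 0.27, adjusted p = 0.00444, edgeR). Neither overlapped between genotypes. grin3ba measured 1.88, 2.47, 1.48 and 1.96 CPM in wild type and 0.337, 0.847, 0.804 and 0.428 CPM in the mutant (log2 fold change −1.68, SE 0.36, adjusted p = 0.00748, edgeR). By contrast grin2da stood at 5.31 ± 0.769 and 5.42 ± 0.670 CPM, grin2aa at 0.4699 ± 0.229 and 0.492 ± 0.298 CPM and grin3bb at 1.53 ± 0.203 and 2.26 ± 0.418 CPM, and none of these passed. The genes below the filter were grin1b, grin2ab with 35 against 6 counts, grin2cb with 20 against 1, grin2ca with 33 against 29, and grin3a with 35 against 22. Of the mutant counts of grin2ca 27 came from pool 2, while pools 3 and 4 had none. When the filter was dropped, grin1b, grin2ab and grin2cb were called lower (adjusted p = 0.00451, 0.0131 and 0.0312, edgeR).

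Kainate receptors modulate excitability on either side of the synapse. None of the 4 genes found by symbol was called, where 32.2% of all tested genes were called in either direction. No row carried a grik2 or grik3 symbol, so the kainate counts and sums cover only these 4 genes. grik1a measured 2.62, 2.90, 2.48 and 4.03 CPM in wild type and 3.32, 4.91, 4.63 and 4.71 CPM in the mutant (log2 fold change 0.54, SE 0.22, adjusted p = 0.0912, edgeR). Mutant pool 1 lay below wild-type pool 4, so the genotypes overlapped, and without either of these pools the gene passed (adjusted p = 0.0387 without mutant pool 1 and 0.03 without wild-type pool 4, edgeR). With any other pool left out grik1a did not pass (adjusted p = 0.176 to 0.213, edgeR). grik4 stood at 0.526 ± 0.0998 and 0.857 ± 0.147 CPM (adjusted p = 0.0985), grik5 at 1.74 ± 0.283 and 1.29 ± 0.412 CPM (adjusted p = 0.322) and grik1b at 0.744 ± 0.213 and 0.765 ± 0.275 CPM (adjusted p = 0.956, edgeR for all). The SEs of grik4, grik1b and grik5 were 0.29, 0.37 and 0.30, with 50, 71 and 165 wild-type counts.

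Metabotropic glutamate receptors fall into group I (which includes grm5), group II (grm2 and grm3) and group III (grm4, grm6, grm7 and grm8), of which the last 2 groups lower cyclic AMP and act at many presynaptic endings. The group II gene grm2a measured 1.35, 2.39, 2.48 and 2.31 CPM in wild type and 0.168, 0.312, 0.268 and 0.178 CPM in the mutant. It fell to 10.9% without overlap (log2 fold change −3.18, SE 0.34, adjusted p = 3.07e-04, edgeR), the second lowest log2 fold change of the tested receptor genes. Its copy grm2b measured 2.71, 3.72, 3.24 and 2.47 CPM against 3.49, 2.59, 2.76 and 2.46 CPM and did not pass (log2 fold change −0.10, SE 0.21, adjusted p = 0.751, edgeR). grm2b is among the 4 receptor genes with fractional counts, where the authors' program divided reads, and grm2a had whole counts throughout.

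The tested group III genes did not pass, and no row carried a grm7 symbol. grm4 measured 4.98, 7.75, 4.43 and 7.24 CPM in wild type and 3.70, 6.02, 4.48 and 4.93 CPM in the mutant, and grm6b 4.33, 2.702, 3.76 and 2.35 CPM against 7.91, 2.81, 3.41 and 3.07 CPM. In grm6b mutant pool 1 stood far above the other mutant pools, and the log2 fold change of 0.39 became −0.08 without it. grm8a and grm8b were at 0.733 ± 0.331 and 0.432 ± 0.154 CPM and at 0.682 ± 0.237 and 0.745 ± 0.275 CPM. In group I, grm5a was at 0.644 ± 0.143 and 0.316 ± 0.1999 CPM and missed the threshold. The genes grm3, grm5b and grm6a were below the filter, with at most 58 counts over the pools of a genotype.

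The unequal behaviour of the a and b copies was tested directly. Zebrafish keep many genes as a pair left from a genome duplication in the ancestor of teleost fish, and for 11 receptor pairs both copies could be measured. The log2 ratio of a copy to b copy was compared between genotypes with limma over all 2312 pairs of symbols in the table that differ only in a final a or b. The ratio changed in 6 of the 11 receptor pairs, and in 34% of all pairs (adjusted p under 0.05). Genotypes did not overlap in the same number of receptor pairs, 6, against 35.4% of all pairs. The median size of the change was 1.24 on the log2 scale in receptor pairs and 0.47 in all pairs. The pairs were not matched for level, and these sizes include noise. The gabbr1 pair, for example, had a size of 1.66 with an SE of 0.84 and did not pass.

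In the AMPA and NMDA pairs gria2, gria3 and grin2d the ratio moved toward the a copy. Both copies of gria2 fell, while gria3b and grin2db fell and gria3a and grin2da did not pass. The log2 ratio of gria3a to gria3b was 0.55, 0.04, 0.44 and 0.089 in the wild-type pools and 1.45, 2.41, 1.75 and 1.69 in the mutant pools (difference 1.55, SE 0.25, adjusted p = 0.00206, limma). For grin2da to grin2db it went from 0.46, −0.032, −0.078 and 0.32 to 1.26, 1.68, 1.504 and 1.20 (difference 1.24, SE 0.24, adjusted p = 0.00481, limma). For gria2a to gria2b the difference was 1.12 (SE 0.30, adjusted p = 0.0201, limma), so the 2 copies fell to unequal degrees. The ratio moved toward the b copy in grm2 (difference −3.00, SE 0.38, adjusted p = 5.42e-04, limma) and in grin3b (−2.28, SE 0.48, adjusted p = 0.00691, limma). There grm2a and grin3ba fell, while grm2b and grin3bb did not pass. The glrba to glrbb ratio moved most, from −3.29 to −8.51 (difference −5.22, SE 0.39, adjusted p = 3.68e-05, limma). For gabbr1, gria1, gria4, grik1 and grm8 the ratio did not pass. The gria1 pair stayed near its wild-type ratio in every pool, between 0.38 and 0.82 in wild type and between 0.43 and 1.05 in the mutant, while the gabbr1 pair had an SE of 0.84.

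**Figure D3:**
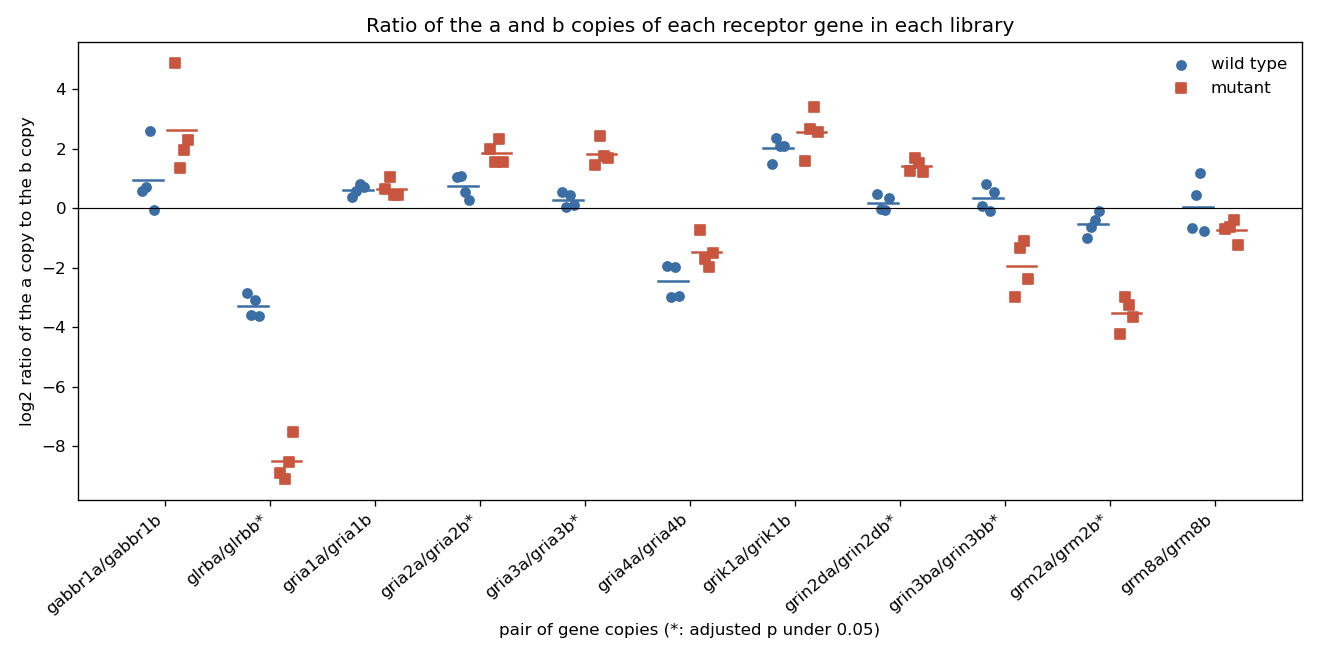
Log2 ratio of the a copy to the b copy in each library for the 11 receptor pairs, wild type as blue circles and mutant as red squares, with a line at the mean of 4. An asterisk marks the 6 pairs at an adjusted p under 0.05, in each of which the genotypes are apart.

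Because markers of postmitotic neurons fell with the receptor genes, each class was also set beside their summed level, as a description without a test. The mutant mean of this sum was 66.7% of the wild-type mean. The marker elavl3, which did not pass (550.4 ± 42.4 and 449.5 ± 44.2 CPM, adjusted p = 0.0779, edgeR), made up 40.6% to 45.3% of the sum in wild type and 48.5% to 53.1% in the mutant. Without elavl3 the mutant mean was 55.7% of wild type. Against the wild-type mean, the GABA-A sum stood at 48.6%, the NMDA sum at 53.4%, the AMPA sum at 62.1%, the glycine sum without glrbb at 43.5% and the metabotropic sum at 84.0%. Pools of the 2 genotypes overlapped in the AMPA sum (37.36 to 61.01 and 26.45 to 41.45 CPM). They also overlapped in the metabotropic sum (16.39 to 20.29 and 13.98 to 17.84 CPM). The kainate sum stood at 121.5%. The GABA-B sum stood at 121%, but its pools overlapped (2.49 to 8.38 and 3.32 to 7.28 CPM), and its direction turned when log2 CPM was averaged over its genes (−0.045). Whether the GABA-A and NMDA sums were low relative to the neuron list depended on elavl3. With it, the GABA-A sum was 2.64% to 3.21% of the list in wild type and 1.79% to 2.48% in the mutant, and the NMDA sum 2.27% to 2.49% and 1.73% to 2.14%, without overlap. Without it, the GABA-A sum was 4.60% to 5.45% and 3.80% to 4.81%, and the NMDA sum 3.96% to 4.38% and 3.69% to 4.50%, and both overlapped. The glycine sum without glrbb was 0.699% to 1.03% of the whole list in wild type and 0.4555% to 0.706% in the mutant. Against the list without elavl3 it was 1.28% to 1.73% and 0.956% to 1.37%. It overlapped with either list, and its mutant mean ratio was 65.6% and 78.5% of the wild-type mean. The AMPA sum overlapped with either list, at 3.32% to 4.46% and 3.27% to 4.93% of the whole list. The kainate sum was higher in every mutant pool with either list, at 0.374% to 0.619% and 0.788% to 0.922% of the whole list and at 0.630% to 1.13% and 1.64% to 1.94% of the list without elavl3. The metabotropic sum overlapped against the whole list (1.21% to 1.70% and 1.51% to 2.12%). Against the list without elavl3 it too was higher in every mutant pool (2.04% to 3.11% and 3.23% to 4.13%). Since the list itself fell, a class that fell less or not at all stands higher relative to it. No kainate gene passed its own test. Summed over all receptor genes but glrbb, the ratio to the whole list was 11.9% to 13.1% in wild type and 10.6% to 13.5% in the mutant, and that to the list without elavl3 was 20.7% to 22.3% and 22.5% to 26.3%. The part of neuron number in the changes of single genes was not tested.

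**Figure D4:**
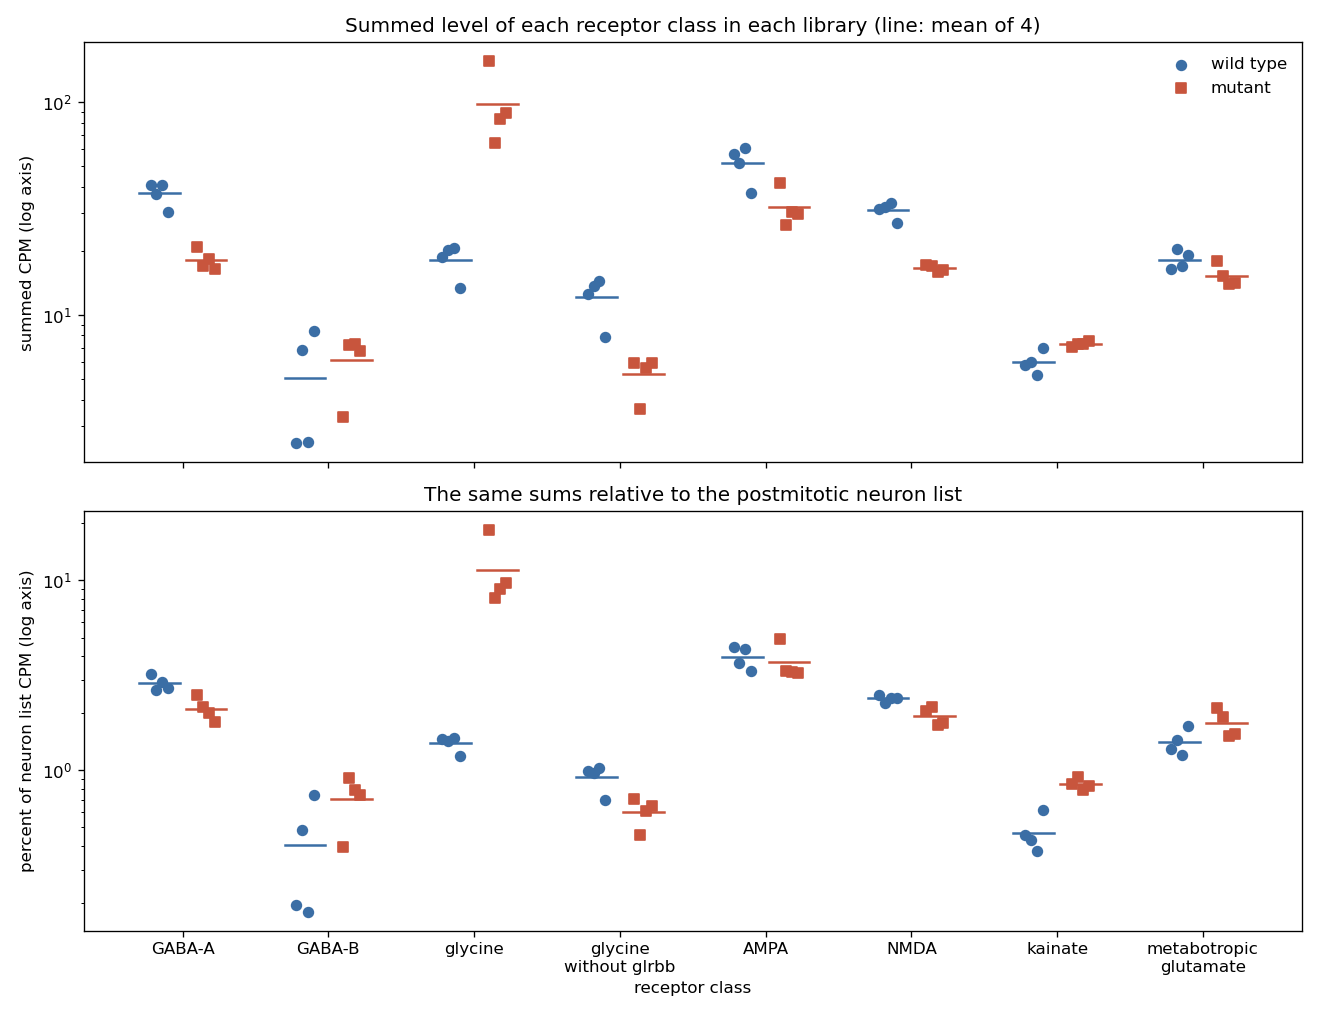
Summed CPM of each receptor class (top) and the same sum as a percentage of the summed CPM of the postmitotic neuron list (bottom), per library on log axes, with a line at the mean of 4. The glycine class is drawn with and without glrbb, which lifts it to 63.9 to 155 CPM in the mutant pools.

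Genes that make, move and anchor the transmitters and receptors were read from lists. Beside them, 16.3% of all tested genes fell and 15.8% rose. Of 12 tested genes of GABA synthesis, transport and breakdown, 5 fell and 1 rose. The synthesis genes gad2 (11.2 ± 0.390 to 3.19 ± 0.542 CPM) and gad1b (8.45 ± 2.50 to 0.973 ± 0.268 CPM) fell. So did the uptake gene slc6a1b (6.03 ± 0.809 to 1.36 ± 0.215 CPM) and slc6a1l (13.2 ± 4.95 to 1.18 ± 0.159 CPM). The adjusted p of these falls ran from 9.80e-05 to 1.94e-04 (edgeR). The gene that rose was slc6a11a (27.3 ± 2.05 to 38.7 ± 5.49 CPM, adjusted p = 0.0125, edgeR). Of the 2 glycine transporter genes, slc6a5, the neuronal carrier, fell from 13.2 ± 2.77 to 5.48 ± 0.251 CPM (adjusted p = 9.81e-04, edgeR). Over the list of inhibitory neuron markers 7 of 9 fell and none rose, with a summed level of 109 to 130.4 CPM in wild type and 62.9 to 70.4 CPM in the mutant. The marker list shares gad1a, gad1b, gad2, slc32a1 and slc6a5 with the GABA and glycine transporter lists, so it is not separate from them.

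Of 14 tested genes of inhibitory synapse anchoring 7 fell and 2 rose, against 16.3% and 15.8% of all tested genes. gphnb, a copy of the gene for gephyrin, went from 7.52 ± 1.88 to 2.57 ± 0.483 CPM and lhfpl4a, a GABA-A receptor partner, from 6.47 ± 0.661 to 2.87 ± 0.722 CPM. gphna, the other gephyrin copy, fell from 34.2 ± 6.85 to 15.5 ± 6.16 CPM (adjusted p = 0.0121, edgeR), so the gene for the anchor fell in the pools in which glrbb rose. The anchoring genes that rose were gabarapa (32.6 ± 2.38 to 39.8 ± 2.05 CPM, adjusted p = 0.0357) and gabarapl2 (13.75 ± 0.858 to 19.0 ± 3.77 CPM, adjusted p = 0.0417, edgeR for both). No gene passed among the 2 tested chloride transporter genes.

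On the glutamate side, 6 of 14 tested genes of release, uptake and recycling fell and 1 rose. The vesicular transporter gene slc17a6a fell from 16.1 ± 3.59 to 6.497 ± 0.799 CPM, the uptake gene slc1a2b from 37.5 ± 4.33 to 20.98 ± 1.41 CPM and the glutaminase gene glsb from 24.9 ± 3.67 to 15.2 ± 1.30 CPM. Of 30 tested auxiliary and scaffold genes 9 fell and 3 rose, where 32.2% of all tested genes changed. homer1b, a scaffold for group I metabotropic receptors, fell from 6.32 ± 0.967 to 1.502 ± 0.0939 CPM. Its relative homer3b rose without overlap, from 28.9 ± 3.73 to 56.05 ± 8.51 CPM (adjusted p = 0.00139, edgeR). grip1, which binds AMPA receptors, fell from 45.6 ± 3.57 to 28.4 ± 2.16 CPM, and dlgap1b, a postsynaptic scaffold gene, rose from 8.34 ± 1.36 to 20.4 ± 2.34 CPM. The remaining gene that rose was cacng2a, from 3.00 ± 0.838 to 6.615 ± 3.48 CPM with overlap (adjusted p = 0.0443, edgeR). Of 4 tested genes of the delta receptors, which are related to glutamate receptors, and their partner, 2 rose and 1 fell. grid2ipb rose from 1.63 ± 0.130 to 4.81 ± 0.593 CPM, grid2ipa fell from 2.08 ± 0.627 to 0.393 ± 0.129 CPM, and grid1a rose from 1.34 ± 0.186 to 2.76 ± 0.741 CPM. The medians of these lists ran from −0.91 for the GABA list to 0.71 for the delta receptor list.

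Marker lists of other cell types were read in the same way, beside the 32.2% of all tested genes that changed. Of 15 neural progenitor markers 1 rose and 4 fell, with overlapping pools and a summed level of 1639 to 1963 CPM in wild type and 1389 to 1785 CPM in the mutant. Of 5 glutamatergic neuron markers 4 were tested and 1 fell, with sums of 27.4 to 42.3 CPM and 16.6 to 22.5 CPM. These markers also all stand on the list of glutamate release, uptake and recycling. All 7 skeletal muscle markers fell, from a sum of 3769 to 5031 CPM to one of 777 to 889 CPM. No marker on any of these lists was at 0 in all libraries. Their part in the receptor levels was not tested.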

How the data were processed

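Whole-embryo total RNA was sequenced after depletion of ribosomal RNA, per the labels' protocols, and genotype and replicate number were taken from the sample titles. The authors deposited RSEM expected counts per gene, unscaled. Trimmomatic, STAR 2.7, RSEM and the build danRer11 are named per the submitters' processing notes, while annotation and strand setting were not given in the sources used here. No 2 libraries agreed within sampling noise (lowest chi-square per degree of freedom 5.80).

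Counts were rounded, filtered with filterByExpr, scaled by TMM and tested in edgeR 4.0.16 (R 4.3.3); tests were two-sided, adjusted by Benjamini-Hochberg. SE is the log2 fold change divided by the root of F. Copy ratios used log2 CPM with a prior count of 0.5 in limma 3.58.1. Alternatives included DESeq2 1.42.0. The procedure was also run on simulated counts. Few genes were changed there and the noise was independent between genes, so the run does not give error rates for these data. Ratios of summed counts have exact 95% intervals. RefSeq's GRCz12tu table, which placed 65 of the 68 genes, gave names and neighbours only; where a neighbour's symbol stood on several rows, the tested row was read.

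Members and lists were chosen with earlier results of these data known. Genes named with full values are, per class, up to 4 changed genes with the smallest p and the 2 with the highest mean CPM, all that rose, and changed copy pairs, and other lists give up to 3 changed genes. Neighbours, members outside this rule, and gphna, gad1b, slc6a11a, gabarapa, gabarapl2, homer3b and cacng2a were named after their values were seen. Some receptor genes are not reported here by name, and counts, medians and sums include them.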

Additional observations from a re-analysis of the deposited data

Results flagged for a closer look

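Among the named receptor genes, 56 groups of 4 pools were screened for a pool far from the others, and 6 stood apart, where chance alone sets apart about 1 group in 20. Mutant pool 1 accounts for 3 of them: gabbr1a was lowest there at 3.03 CPM, against 4.33 to 4.57 CPM in the other mutant pools, while gria3a at 16.4 CPM (others 8.43 to 9.42) and grm6b at 7.91 CPM (others 2.81 to 3.41) were highest there. glra3 was lowest in mutant pool 2 at 1.695 CPM (others 2.27 to 2.36). grin2bb was lowest in wild-type pool 4 at 2.08 CPM (others 3.496 to 3.71), and grm2a was lowest in wild-type pool 1 at 1.355 CPM (others 2.31 to 2.48).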

How the results depend on the processing

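Over 16 alternatives, 410 of 447 values for the named receptor genes kept their direction and side of the threshold. glrbb stayed higher (log2 fold change 3.598 to 4.09) and gabrz, grm2a and gria2b lower in each. The count of receptor genes that fell ran from 13 to 19. With a covariate for the share of ribosomal protein counts, chosen after the data were seen, 11718 genes changed in all and 5 receptor genes rose. The 5 were glrbb, gabbr1a, grik1a, grin3bb and grm6b. The number that rose was 2 with DESeq2, with limma-voom and with the replicate block, and 1 to 3 when a pool was left out. Of all genes, 5310 to 8602 changed with a pool left out. Signs turned, without passing, for gria3a (−0.007 with total counts, −0.244 to 0.177 with a pool left out), grin2da (−0.064 to 0.116 with a pool left out, −0.023 with the covariate), grm2b (−0.219 to 0.005 with a pool left out) and grm6b (−0.080 to 0.549 with a pool left out). Averaging log2 CPM over tested genes turned the class change of GABA-B from 0.28 to −0.045 and of glycine from 2.42 to −0.312, and took the metabotropic class from −0.252 to −0.584; without glrbb the glycine class stood at −1.20. Leaving elavl3 out of the neuron list, chosen after the data were seen, took the log2 change of the class sum relative to that list from −0.450 to −0.198 for GABA-A, from −0.315 to −0.062 for NMDA, from 0.331 to 0.573 for the metabotropic class and from −0.090 to 0.161 for AMPA. Copy pairs with a changed ratio numbered 5 to 7. Of same-numbered pools, those of replicate 1 deviated together (correlation 0.65), while those of replicates 2, 3 and 4 did so little or not (0.17, −0.27 and 0.090). Wild-type pool 4 and mutant pool 2, with unlike numbers, reached 0.68, so the numbers were not taken as a pairing. The replicate block left 16 receptor genes lower, 2 higher (glrbb and gabbr1a) and 7193 changed in all. The elavl3 shift follows from its share of the list together with its smaller reduction than that of the other markers. The mutant mean of the list was 66.7% of wild type with elavl3 and 55.7% without it. Other causes were not tested.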
